A study of Danio rerio with 9 samples.

Results

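Adult zebrafish heart was compared with adult zebrafish muscle by RNA-seq, over assembled transcripts with a mean above 0.1 FPKM in either tissue. FPKM is a fragment count scaled to the length of the transcript and the size of the library. This condition kept 63529 of the 103079 transcripts listed. The study's list of cardiac lincRNAs (long intergenic noncoding RNAs), taken as all entries listed for embryonic or adult heart, held 813 transcripts, and 780 of them passed. The other 33 were too low in both adult tissues, and 31 of those were listed for embryonic heart only. The 780 lincRNAs were set against the other 62749 transcripts, on the side that was higher in adult heart and on the side that was lower.

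The samples were 3 adult hearts from fish of 6 months and 3 adult muscles from fish whose age is given only as adult, all of the wild-type WIK strain, without treatment. Another 3 samples of embryonic heart at 4 days post fertilization completed the 9 samples of the series and entered the fit as a further tissue. Nothing in the sources used here says that a heart and a muscle with the same number came from the same fish, or whether a sample was a pool, so p-values measure the spread between these samples. The values carry identifiers of the assembly and no gene symbols. The tissue labels therefore could not be checked against marker genes of cardiac or skeletal muscle, endothelium, or blood. Whole tissue was sequenced, and fewer cells of a type cannot be told apart from less RNA per cell.

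LincRNAs are transcribed and usually spliced like messenger RNAs, but lie between protein-coding genes and encode no known protein. Those that have been studied act on neighbouring genes or as scaffolds for protein complexes, and many are found in few tissues. Heart and skeletal muscle are both striated and share the contractile apparatus, but use different isoforms of it. The heart also holds valves, epicardium, endocardium, and pacemaker tissue, so the comparison sets a cardiac organ against its closest relative among muscles.

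The comparison of adult heart with adult muscle called 123 lincRNAs higher and 83 lower. A call required an adjusted p under 0.05, and means that differed more than 2-fold. These were 15.8% and 10.6% of the 780 tested. Of all transcripts tested, 6869 were called higher and 7880 lower, or 10.8% and 12.4%. The median log2 fold change was 0.31 over the lincRNAs and 0.02 over all transcripts. On this scale, log2(FPKM + 0.1), the change of weakly expressed transcripts is understated. A call left little room for samples to overlap. Of all transcripts, 6856 of the 6869 called higher and 7850 of the 7880 called lower had no overlap. All 123 higher lincRNAs had 3 heart samples above every muscle sample. Of the 83 lower lincRNAs, 82 had every heart sample below every muscle sample. The exception, named for this reason after its values were seen, was TCONS_00019292 (lnc_lgi1a_1), with 3.94, 7.83, and 3.31 FPKM in adult heart and 15.6, 6.82, and 16.7 FPKM in adult muscle. Its adjusted p was 0.0471, and reached 0.146 when 1 sample was left out. Without the call rule, samples did not overlap for 229 lincRNAs on the higher side and 165 on the lower side, or 29.4% and 21.2%. The same held for 22.0% and 23.1% of all transcripts. The lincRNA list was selected for expression in heart, and the counts are set beside other transcripts under the same condition with the expression bins.

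**Figure D1:**
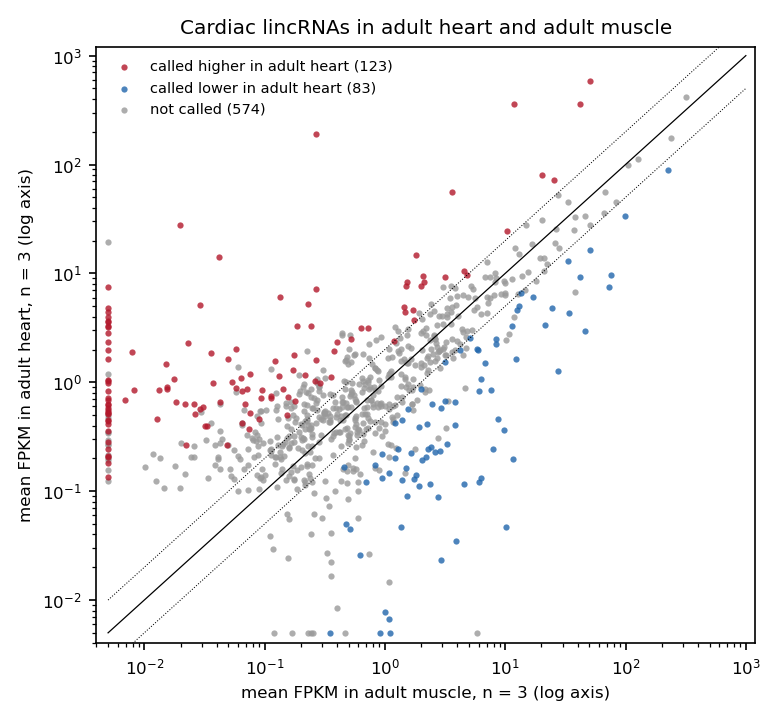
Mean FPKM of the 780 cardiac lincRNAs, with adult heart on the vertical and adult muscle on the horizontal log axis, n = 3 samples each. The solid line marks equal means and the dotted lines a ratio of 2, and means under 0.005 FPKM are drawn at 0.005. The 123 lincRNAs called higher in adult heart (red) include a column at the left edge, and 73 of the 83 called lower (blue) lie above 1 FPKM in muscle.

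Samples of a tissue were more alike than samples of different tissues. Pearson's r across the lincRNAs, on log2 values and without counting genes as replicates, ranged over 0.846 to 0.899 for pairs of adult heart samples, 0.875 to 0.912 for pairs of adult muscle samples, and 0.568 to 0.646 for a heart with a muscle sample. Between 668 and 707 of the 813 lincRNAs were above 0.1 FPKM in an adult heart sample, against 589 to 599 in an adult muscle sample. The list was selected for expression in heart, and of all transcripts 47079 to 50347 were above 0.1 FPKM in an adult heart sample and 47397 to 48987 in an adult muscle sample. Read numbers were not among the values, and the depth of a sample is thus unknown here.

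The heart side was led by lincRNAs that were close to absent from muscle. TCONS_00000540, an unannotated lincRNA of 3 exons and 387 nt on the unplaced sequence Zv9_NA427 (positions 23950 to 26227, Zv9), had 194, 188, and 191 FPKM in adult heart and 0.277, 0.371, and 0.154 FPKM in adult muscle. Its log2 fold change was 9.07 ± 0.29 (SE, adjusted p = 2.80e-07), the largest among the lincRNAs. TCONS_00028686 lies on chromosome 16 (18902010 to 18907533) and has 2 exons and 5464 nt. It had 24.3, 31.0, and 28.3 FPKM in adult heart, against 0, 0.0267, and 0.0328 FPKM in adult muscle, a log2 fold change of 7.87 ± 0.34 (SE, adjusted p = 1.30e-06). In embryonic heart its mean was only 0.129 FPKM. These lincRNAs thus separated the tissues without any sample near the other group, although their embryonic levels were far apart, since TCONS_00000540 averaged 56.1 FPKM in embryonic heart.

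TCONS_00005687, on chromosome 1 (16627133 to 16629233), had 17.5, 14.1, and 10.8 FPKM in adult heart and 0.125, 0, and 0 FPKM in adult muscle. TCONS_00044335, an Ensembl lincRNA on chromosome 2 (35202766 to 35224078), had 13.7, 4.93, and 4.07 FPKM in adult heart and less than 0.001 FPKM in each adult muscle sample. TCONS_00095930, an Ensembl lincRNA of 4 exons on chromosome 8 (26586814 to 26605210), had 4.81, 3.33, and 5.22 FPKM in adult heart and also less than 0.001 FPKM in each muscle sample. Cufflinks divides fragments among overlapping transcripts, and values that low are estimates of such shares and not whole fragments. They made up 184 of the 4680 values of the tested lincRNAs in the 6 adult samples, and another 323 values were listed at 0. The log2 fold changes of these 3 lincRNAs were 6.74, 6.05, and 5.48 (adjusted p between 1.81e-05 and 0.00819).

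Neighbouring unannotated lincRNAs on the unplaced sequence Zv9_NA650 were both close to absent from adult muscle. TCONS_00000890 (29263 to 29899) had 4.11, 6.80, and 3.53 FPKM in adult heart and was listed at 0 in all 3 adult muscle samples. TCONS_00000891 (30002 to 35652) had 2.12, 2.84, and 1.93 FPKM in adult heart, against 0.0244, 0.0341, and 0.0105 FPKM in adult muscle, a log2 fold change of 4.27 ± 0.44 (SE, adjusted p = 1.82e-04). Of the 123 lincRNAs called higher, 25 were listed at 0 in every muscle sample, and no fold is given for those. The mean in muscle was at or below 0.1 FPKM for 76 of the 123 and above 1 FPKM for 21.

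The most abundant lincRNAs on the heart side were mostly expressed in muscle too. TCONS_00040395, an Ensembl lincRNA of 1 exon on chromosome 19 (36916961 to 36918197), had the highest mean of all called lincRNAs. It reached 739, 500, and 511 FPKM in adult heart and 40.0, 54.7, and 58.4 FPKM in adult muscle, a ratio of means of 11.4 (log2 fold change 3.51 ± 0.27 SE, adjusted p = 2.99e-05). TCONS_00048108, an Ensembl lincRNA on chromosome 20 (12386394 to 12390750), had 453, 346, and 287 FPKM in adult heart and 43.5, 34.2, and 47.5 FPKM in adult muscle. TCONS_00079130, unannotated and on chromosome 4 (53795266 to 53799794), had 504, 286, and 292 FPKM in adult heart and 19.6, 3.05, and 12.7 FPKM in adult muscle. The muscle samples of TCONS_00079130 were widely spread, yet its highest muscle value was far under its lowest heart value. TCONS_00064425, on chromosome 24 (59941 to 71930), had 95.1, 77.3, and 70.4 FPKM in adult heart and 18.4, 22.7, and 19.4 FPKM in adult muscle. The log2 fold changes of these 3 were 3.10, 5.23, and 1.99 (adjusted p between 5.91e-05 and 0.00182).

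Other heart-side lincRNAs that the study's text names were called as well. TCONS_00007801, on chromosome 10 (4917864 to 4922140), had 62.2, 47.5, and 58.4 FPKM in adult heart and 3.64, 2.50, and 4.67 FPKM in adult muscle (log2 fold change 3.96 ± 0.23 SE, adjusted p = 5.83e-06). TCONS_00022936, on chromosome 14 (7762484 to 7764082), had 99.7, 60.1, and 57.1 FPKM in adult heart and 30.9, 20.4, and 24.5 FPKM in adult muscle. TCONS_00022820, also on chromosome 14 (1783090 to 1785959), had 26.9, 21.2, and 25.6 FPKM in adult heart and 10.5, 9.84, and 10.6 FPKM in adult muscle, with a log2 fold change of 1.23 ± 0.18 (SE, adjusted p = 0.00113). By FPKM, TCONS_00007801 was at a few units in muscle, and the others were expressed well in both tissues. By PCR across adult tissues including muscle, the study describes TCONS_00007801 in heart and brain and TCONS_00022820 in heart and spleen. It describes TCONS_00064425 in heart, brain, kidney, and spleen, and does not name muscle for any of them. The difference between that PCR and the FPKM in muscle was not tested.

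The PCR primers that the study designed for 5 of these lincRNAs are given 5′ to 3′ to identify the transcripts the heart side rests on, the near-absent ones and the abundant ones. No base is capitalised, because no part of a primer differs in role.
TCONS_00028686 forward: ttgcttggtcattgatacttgc
TCONS_00028686 reverse: caagcaagcttccacacaga
TCONS_00000891 forward: tcataattgcatggtggaagc
TCONS_00000891 reverse: tctctccggcattttatcaac
TCONS_00007801 forward: gatgctggtgacagcggcgg
TCONS_00007801 reverse: ttacagtaaatttctgtcac
TCONS_00040395 forward: aaaccgtcacagcagagaccac
TCONS_00040395 reverse: aaagtccacacagcaggaacac
TCONS_00048108 forward: tttggtctcttctcatgtctcc
TCONS_00048108 reverse: tagaggtgtcgtctgtgctg

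**Figure D2:**
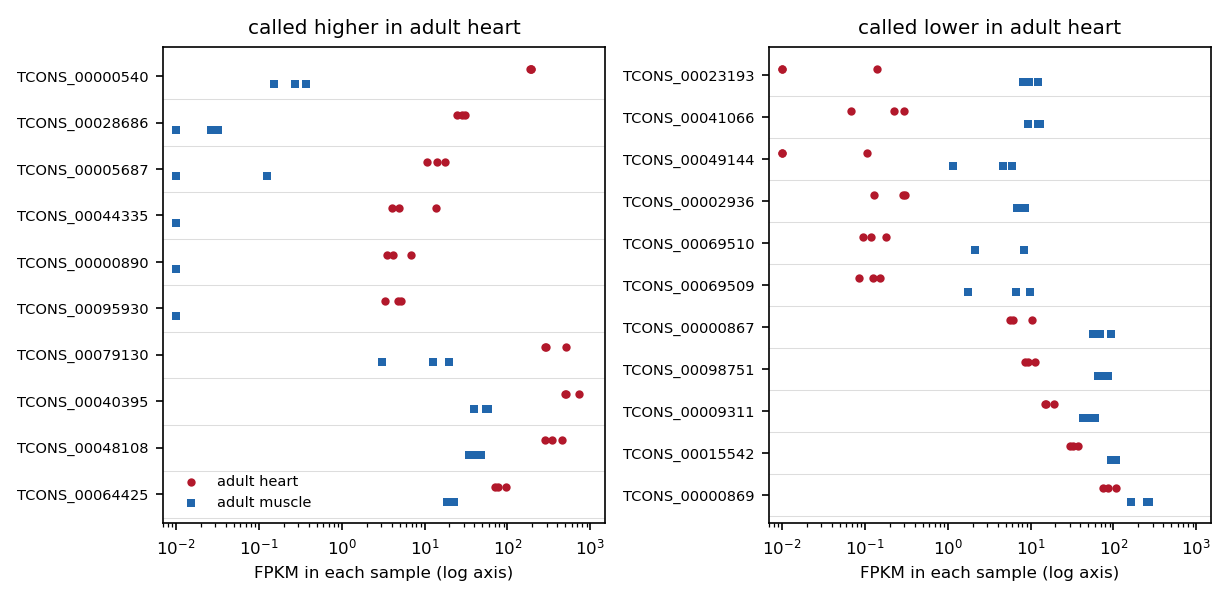
FPKM in each sample (log axis) of the called lincRNAs with the largest changes or the highest levels, higher in adult heart on the left and lower in adult heart on the right. Red circles are the 3 adult heart samples and blue squares the 3 adult muscle samples, and values under 0.01 FPKM, including 0, are drawn at 0.01. No lincRNA shown has a heart sample within the range of its muscle samples.

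On the muscle side, fewer lincRNAs were near absence in the other tissue. Only 3 of the 83 lincRNAs called lower in adult heart were listed at 0 in every heart sample, and 27 had a mean above 1 FPKM there. Their median mean was 3.15 FPKM in muscle, against 1.10 FPKM in heart for the 123 called higher. The median length was 1553 nt for the lower and 1035 nt for the higher lincRNAs. In their own tissue, 20 of the 83 and 12 of the 123 exceeded 10 FPKM. The list required over 0.1 FPKM in a heart tissue and nothing of muscle. The counts near absence and the levels of the sides are thus partly fixed by the list and are no independent result. Among all transcripts, 411 of the 7880 called lower and 672 of the 6869 called higher were listed at 0 in every sample of the other tissue.

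The largest fall was that of TCONS_00023193, annotated as lnc_rnf20_1. The gene in its name, rnf20, encodes an E3 ubiquitin ligase that acts on histone H2B in mammals. The lincRNA has 4 exons on chromosome 14 (22053769 to 22067290). It had 0.142 FPKM in adult heart replicate 1 and less than 0.001 FPKM in the other 2, against 8.18, 12.5, and 9.64 FPKM in adult muscle, and its log2 fold change was -6.23 ± 0.92 (SE, adjusted p = 0.00138). TCONS_00041066, unannotated and on chromosome 19 (5585402 to 5586603), had 0.301, 0.0684, and 0.225 FPKM in adult heart and 9.28, 12.3, and 12.9 FPKM in adult muscle. Its log2 fold change was -5.36 ± 0.42 (SE, adjusted p = 3.35e-05), the smallest error among the largest falls. Both exceeded 8 FPKM in every muscle sample and under 1 FPKM in every heart sample.

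TCONS_00049144, an Ensembl lincRNA of 4 exons on chromosome 20 (40271892 to 40279877), had 0.105 FPKM in adult heart replicate 1 and less than 0.001 FPKM in the others, and 1.17, 4.67, and 5.92 FPKM in adult muscle. TCONS_00002936, on chromosome 1 (1317208 to 1318719), had 0.288, 0.129, and 0.311 FPKM in adult heart and 6.88, 8.50, and 8.56 FPKM in adult muscle. Their log2 fold changes were -4.71 and -4.60 (adjusted p = 0.00978 and 2.66e-04). On chromosome 3, TCONS_00069509 (lnc1_dhps_1, 13098626 to 13109477) and TCONS_00069510 (13104050 to 13109472) overlap. The first had 0.155, 0.125, and 0.0849 FPKM in adult heart and 6.603, 1.76, and 9.86 FPKM in adult muscle. The second had 0.0949, 0.120, and 0.183 FPKM in adult heart and 8.27, 2.12, and 8.37 FPKM in adult muscle. Muscle replicate 1 was the lowest of the muscle samples for both, and since their reads are divided by the assembly, the pair is not 2 independent observations.

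The most abundant muscle-side lincRNAs were expressed in both tissues. TCONS_00000869 and TCONS_00000867 are isoforms on the unplaced sequence Zv9_NA631 (13143 to 15191 and 13143 to 15186). TCONS_00000869 had 107, 75.6, and 86.2 FPKM in adult heart and 161, 251, and 270 FPKM in adult muscle, a log2 fold change of -1.32 ± 0.23 (SE, adjusted p = 0.00315). TCONS_00000867 had 10.4, 5.71, and 6.18 FPKM in adult heart and 68.9, 92.5, and 56.8 FPKM in adult muscle, a log2 fold change of -3.30 ± 0.66 (SE, adjusted p = 0.00648). The isoforms thus moved in the same direction, each without overlap of the samples, but fragments are divided between them and they are not independent observations.

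TCONS_00015542, on chromosome 12 (48155131 to 48161450), had 37.3, 32.8, and 30.1 FPKM in adult heart and 98.5, 92.7, and 109 FPKM in adult muscle, a log2 fold change of -1.58 ± 0.13 (SE, adjusted p = 5.06e-05). TCONS_00009311, an Ensembl lincRNA on chromosome 10 (1734814 to 1745093), had 19.3, 14.8, and 15.5 FPKM in adult heart and 48.9, 60.1, and 42.4 FPKM in adult muscle (adjusted p = 3.60e-04). TCONS_00098751, on chromosome 8 (52262773 to 52263199), had 8.49, 9.29, and 11.3 FPKM in adult heart and 65.9, 86.6, and 76.2 FPKM in adult muscle. Its samples lay close together within each adult tissue, and its adjusted p of 0.0227 carried the spread of embryonic heart, where it had 0.935, 0.845, and 0 FPKM. Without any 1 of the 6 adult samples the adjusted p was 0.0539 to 0.0687, and in a fit of only the 6 adult samples it was 6.77e-05.

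Of 83 lincRNAs listed for embryonic heart only, 52 were tested, and limma called 14 lower (26.9%) and 0 higher in adult heart, against 9.39% lower and 8.78% higher among other transcripts of the same expression. Among other transcripts that also exceeded 0.1 FPKM in 2 of 3 samples of a heart tissue, 3.43% were lower and 12.7% higher. At an unadjusted p under 0.05 the counts were 21 lower and 0 higher, against 12073 and 11302 of all 63529 transcripts. The samples of 28 did not overlap on the lower side, and those of 0 on the higher side. Of all transcripts, 23.1% and 22.0% did not overlap. This direction is largely fixed in advance. An entry listed for embryonic heart only had failed the expression condition in adult heart, and most entered the test through muscle. The median mean was 0.0431 FPKM in adult heart and 0.352 FPKM in adult muscle. These shares are therefore no independent result. TCONS_00023193 and TCONS_00049144 belong to this list. So does TCONS_00024792, with 0 FPKM in every adult heart sample and 1.76, 0.580, and 0.965 FPKM in adult muscle. TCONS_00092282 likewise was listed at 0 in adult heart and had 1.03, 0.830, and 0.866 FPKM in adult muscle. These 2 were chosen for mention after their values were seen.

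The embryonic heart, which did not define the contrast, stood in different places for the called groups. Among the 123 lincRNAs higher in adult heart, the embryonic mean lay between the means of the adult tissues for 76, above both for 19, and below both for 28. Among the 83 lower in adult heart, it lay between them for 36, below both for 40, and above both for 7. These counts describe means and carry no test, since the adult samples are shared with the contrast. The list was selected for expression in embryonic or adult heart, which bears on where the embryonic mean can lie. The counts were not set beside other called transcripts, and the groups are not compared by them.

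A few lincRNAs carry the symbol of a gene of contraction or development in their annotation. TCONS_00091387 (tnnt3bpa_1), named after tnnt3b, which encodes a fast skeletal muscle troponin T, lies on chromosome 7 (40821138 to 40831379). It had 0.197, 0.490, and 0.490 FPKM in adult heart and 1.08, 2.46, and 2.24 FPKM in adult muscle, a log2 fold change of -2.03 ± 0.48 (SE, adjusted p = 0.0146). The call was lost without adult muscle replicate 1 (adjusted p = 0.0574) or replicate 2 (adjusted p = 0.0567). TCONS_00062814 (tnnc1aia2_1), named after tnnc1a, which encodes a troponin C of slow and cardiac muscle, had 0.385, 0.231, and 1.02 FPKM in adult heart and 0.0889, 0.193, and 0 FPKM in adult muscle. Its samples did not overlap, but the difference was not called (log2 fold change 1.67 ± 0.57 SE, adjusted p = 0.0636). Whether either transcript shares reads with the troponin gene could not be told from the values.

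TCONS_00024033 (lnc_msxe_1), named after a muscle segment homeobox gene, had 12.9, 10.4, and 8.25 FPKM in adult heart and 4.89, 4.40, and 4.42 FPKM in adult muscle, and was called higher (log2 fold change 1.17 ± 0.20 SE, adjusted p = 0.00303). TCONS_00022247 (sox3pa1_1) had 0.385, 0.184, and 0.457 FPKM in adult heart and 0.914, 0.750, and 0.815 FPKM in adult muscle, without a call (adjusted p = 0.134). The lincRNAs named after tcf7 (TCONS_00055071), msgn1 (TCONS_00079532), and tbx2a (TCONS_00085647) had log2 fold changes of -0.04, 0.32, and 0.35, with adjusted p between 0.386 and 0.963. These lincRNAs are named after regulators of transcription, and of those given here only lnc_msxe_1 passed the test.

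Bidirectional lincRNAs start close to a protein-coding gene on the opposite strand and may share its promoter. All 32 on the study's list were tested, and 5 were higher and 3 lower in adult heart, or 15.6% and 9.38%. Of all tested lincRNAs, these shares were 15.8% and 10.6%, and of other transcripts of the same expression 11% and 13.2%. Among other transcripts that also exceeded 0.1 FPKM in 2 of 3 samples of a heart tissue, they were 12.9% and 8.04%. TCONS_00050295, beside the deubiquitinase gene usp46, had 10.9, 5.92, and 7.99 FPKM in adult heart and 2.51, 1.72, and 2.07 FPKM in adult muscle (log2 fold change 1.90 ± 0.25 SE, adjusted p = 6.43e-04). TCONS_00066754, beside si:ch211-68a17.4, had 1.38, 1.61, and 1.47 FPKM in adult heart and 6.05, 7.22, and 6.96 FPKM in adult muscle (log2 fold change -2.11 ± 0.25 SE, adjusted p = 3.97e-04). These 2 had the smallest adjusted p of the bidirectional lincRNAs on their side.

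TCONS_00065079, beside zgc:112408, had 1.06, 1.06, and 0.522 FPKM in adult heart and 0, 0, and 0.174 FPKM in adult muscle (adjusted p = 0.00454). TCONS_00098084, beside the chromatin remodeler gene smarcad1, had 0.164, 0.0324, and 0.241 FPKM in adult heart and 1.06, 1.51, and 0.677 FPKM in adult muscle (adjusted p = 0.0112). TCONS_00050140, beside the calmodulin gene calm2a, was listed at 0 in adult heart and had 0.309, 0.335, and 0.406 FPKM in adult muscle (adjusted p = 0.0153). Its call was lost with a pseudocount of 1 (log2 fold change -0.43, adjusted p = 0.177). Calmodulin is a general calcium sensor of cells. The values of the neighbour genes themselves could not be read from the table, which carries no gene symbols.

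The remaining bidirectional calls were lost when single samples were left out. TCONS_00016569, beside cacna1g, the gene of a T-type calcium channel subunit, had 0.718, 1.49, and 1.10 FPKM in adult heart and 0.0523, 0, and 0.137 FPKM in adult muscle (log2 fold change 2.92 ± 0.89 SE, adjusted p = 0.0418). Without any 1 of the 6 adult samples its adjusted p was 0.0657 to 0.126, and in a fit of only the 6 adult samples it was 0.00588. TCONS_00074650, beside tmbim4, had 0.431, 0.965, and 1.08 FPKM in adult heart and 0, 0.194, and 0 FPKM in adult muscle (adjusted p = 0.0158). Its call was lost without adult heart replicate 1 or 2 or adult muscle replicate 0 or 2, at an adjusted p of 0.0578, 0.0601, 0.0533, and 0.0553. TCONS_00007803, beside the sorting nexin gene snx30, had 4.71, 1.62, and 1.18 FPKM in adult heart and 0.607, 0.441, and 0.533 FPKM in adult muscle (adjusted p = 0.0205). Its call was lost without adult muscle replicate 1 (adjusted p = 0.0636) or replicate 2 (adjusted p = 0.0546). TCONS_00069379, beside BX927317.3, had 0, 49.97, and 8.06 FPKM in adult heart and 0 in each muscle sample, and was not called (adjusted p = 0.0785).

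The 813 lincRNAs fell into 725 loci, with spans that overlap or lie within 1 kb joined, and 158 of them lay in the 70 loci that held 2 or more. In 11 loci, at least 2 lincRNAs were called, and all 11 had a single direction. In most of them the called lincRNAs overlap and fragments are divided among them, so this agreement is no independent result. On chromosome 8, 3 isoforms of 7 exons (50731535 to 50737791) were listed at 0 in every muscle sample. TCONS_00098669 had 3.06, 2.14, and 1.88 FPKM in adult heart, TCONS_00098670 had 1.09, 2.04, and 1.74 FPKM, and TCONS_00098671 had 5.60, 1.44, and 2.91 FPKM. On chromosome 12 (43226011 to 43229196), TCONS_00016938 had 3.86, 3.91, and 5.18 FPKM in adult heart and 30.6, 35.6, and 34.7 FPKM in adult muscle, and its isoform TCONS_00016939 was also lower. With 1 lincRNA kept per locus, the one with the highest mean, 112 were higher and 78 lower of 698 tested.

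Called lincRNAs of different loci that lay next to each other within 100 kb formed 9 pairs, of which 7 had the same direction. No expected share was computed for this count. The opposite pairs were on chromosomes 24 and 15. TCONS_00063144 had 0.257, 0.261, and 0.135 FPKM in adult heart and 1.11, 0.972, and 0.778 FPKM in adult muscle, 25802 bp from TCONS_00064425, which was higher in heart. TCONS_00026416 was higher in adult heart, with 0.425, 0.926, and 0.795 FPKM against 0.0727, 0.154, and 0.0564 FPKM in adult muscle, and TCONS_00024792, 91836 bp away, was lower. These pairs were picked out after their values were seen. Called lincRNAs were found on 24 chromosomes on the higher side and on 23 on the lower side. Chromosome 4 held the most tested lincRNAs, 75, of which 10 were higher (13.3%) and 3 lower (4%). Of all tested lincRNAs, 15.8% were higher and 10.6% lower.

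To compare lincRNAs with other transcripts of similar expression, the lincRNAs were divided into 10 bins of 78 by their mean log2 value over the 6 adult samples, and the other transcripts were placed in the same bins. Weighted to these bins, 11.4% of other transcripts were called higher and 13.7% lower, against 15.8% and 10.6% of the lincRNAs. The exact 95% binomial interval of the lincRNA share was 13.3% to 18.5% on the higher side and 8.56% to 13.0% on the lower side. It takes lincRNAs as independent, but all were called on the same samples, and isoforms of 1 locus share reads. The interval therefore leaves out the spread between samples and is no test of lincRNAs against other transcripts. Against all other transcripts, the difference was in the weakly expressed lincRNAs. The list required over 0.1 FPKM in a heart tissue, and no such condition was set for the other transcripts here. Its effect in the single bins was not computed. Other transcripts under that condition are given below only pooled over the bins. The place of the difference among the bins is thus not read as a trait of lincRNAs. In the lower 5 bins, 75 of 390 lincRNAs (19.2%) were higher and 17 (4.36%) lower in adult heart, against 10.2% and 12% of other transcripts with the same weights. In the upper 5 bins, 48 (12.3%) were higher and 66 (16.9%) lower, against 12.6% and 15.3%.

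In bins 2 to 4, whose lincRNAs had median levels of 0.147, 0.205, and 0.293 FPKM, 24.4%, 23.1%, and 23.1% of the lincRNAs were higher, against 11.1%, 12%, and 11.4% of other transcripts. In the highest bin, from 5.68 FPKM upward, 10 of 78 lincRNAs were higher and 17 lower, or 12.8% and 21.8%, against 14.4% and 17.9% of other transcripts. The median log2 fold change of the lincRNAs was 0.67 in the lower 5 bins and -0.14 in the upper 5. The median standard deviation within a tissue was 0.69 log2 units for lincRNAs of the lower bins and 0.82 for other transcripts there, and 0.41 and 0.37 in the upper bins. The lower bins thus held noisier values for both kinds of transcript, and slightly noisier ones for other transcripts.

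**Figure D3:**
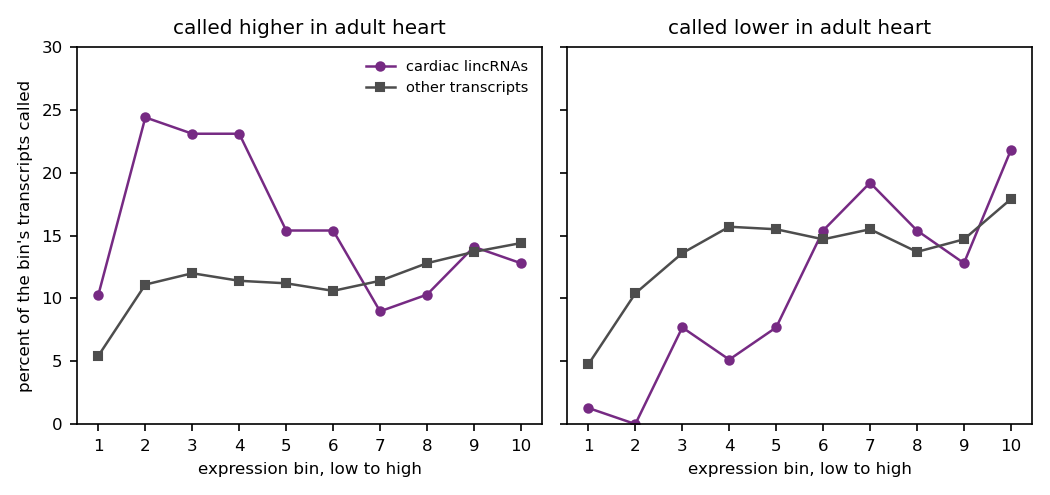
Percent of transcripts called higher (left) and lower (right) in adult heart than in adult muscle, in 10 bins of expression from low to high, for cardiac lincRNAs (circles, 78 in each bin) and other transcripts (squares). The lincRNA share lies above the other transcripts in bins 1 to 6 on the left and below them in bins 1 to 5 on the right, and is near them in the upper bins. The lincRNAs were selected for expression in heart, and the other transcripts drawn were not.

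The way the list was made bears on this difference. Each of the 813 lincRNAs exceeded 0.1 FPKM in at least 2 of 3 samples of embryonic or adult heart, whereas 11383 of the other transcripts tested did not. Of those 11383, 2919 were lower in adult heart and 11 were higher. Among the 51366 other transcripts that met the condition, 13.1% were called higher and 9.04% lower at the same expression, against 15.8% and 10.6% of the lincRNAs. The lincRNA surplus was then 2.67 percentage points on the higher side and 1.60 on the lower side, where it had been a deficit of -3.01 points against all other transcripts. Where both adult tissues had a mean above 0.1 FPKM, 47 of 586 lincRNAs (8.02%) were higher and 69 (11.8%) lower, against 8.32% and 9.67% of 41434 other transcripts. On the heart side the lincRNAs then stood at -0.30 points from the other transcripts. That restriction leaves out 76 of the 123 higher lincRNAs, those with a mean of 0.1 FPKM or less in adult muscle, so it is decided by the difference itself and nothing is read from it.

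By the same means, 153 of the 780 lincRNAs (19.6%) were above 0.1 FPKM in adult heart only and 41 (5.26%) in adult muscle only, against 17.1% and 16.8% of the other transcripts tested. These classes rest on the levels that the test compares and are given as a description.

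By annotation, 89 of 416 unannotated lincRNAs were higher in adult heart (21.4%) and 47 lower (11.3%). Of 364 known lincRNAs, those that match an Ensembl or zflncRNApedia entry, 34 were higher (9.34%) and 36 lower (9.89%). Other transcripts of the same expression were called higher in 11.5% and 11.3% of cases for the unannotated and the known lincRNAs, a nearly equal background. Under the heart condition of the list, the background was 13.1% for both. Among entries listed for adult heart, 89 of 398 unannotated lincRNAs (22.4%) and 34 of 330 known lincRNAs (10.3%) were higher. The unannotated lincRNAs were assembled from these same samples of heart and muscle, and both kinds were listed for expression in heart. Their shares are therefore no independent result. Outside the cardiac-specific list described next, 27 of 315 unannotated lincRNAs were higher (8.57%) and 47 lower (14.9%). Of 286 known lincRNAs there, 18 were higher (6.29%) and 36 lower (12.6%). Other transcripts of the same expression were higher in 12.1% and 12% of cases and lower in 15% and 14.4%, for unannotated and known. This subset is chosen on the levels that the test compares, so nothing is read from these shares.

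The cardiac-specific list of the study holds lincRNAs with expression in heart and not in muscle, chosen on these samples, so its direction is no independent result. Of its 212 entries, 179 were tested, and limma called 78 higher (43.6%) and 0 lower, against 105 and 0 at an unadjusted p under 0.05. Of other transcripts of the same expression, 9.3% were called higher and 10.1% lower, or 13% and 3.81% under the heart condition. The 601 entries outside it gave 45 higher (7.49%) and 83 lower (13.8%) lincRNAs, against 12% and 14.7% of other transcripts of the same expression. Leaving out the cardiac-specific entries is a choice on the same values, so this split is no independent result either. The study's list of lincRNAs with high ratios of heart over muscle was chosen on these samples as well. Of its 18 entries found here, 15 were called higher (83.3%) and 0 lower, against 13.6% and 16.4% of other transcripts of the same expression. TCONS_00013715, with 51.8, 50.3, and 53.7 FPKM in adult heart and 27.4, 29.4, and 25.3 FPKM in adult muscle, and TCONS_00020362, with 28.4, 28.0, and 26.4 FPKM in adult heart and 14.4, 15.3, and 14.8 FPKM in adult muscle, passed the adjusted p but not the ratio of 2. TCONS_00052125, with 58.1, 40.3, and 38.7 FPKM in adult heart and 27.7, 34.4, and 37.7 FPKM in adult muscle, passed neither (adjusted p = 0.184).

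Of lincRNAs with 1 exon, 9 of 71 were higher (12.7%) and 5 lower (7.04%). With 2 exons, 81 of 466 were higher (17.4%) and 51 lower (10.9%), and with 3 or more, 33 of 243 were higher (13.6%) and 27 lower (11.1%). Other transcripts of the same expression were called higher in 11.8%, 11.4%, and 11.3% of cases and lower in 13.6%, 13.7%, and 13.5%, for 1, 2, and 3 or more exons. Under the heart condition of the list, they were higher in 13.3%, 13.1%, and 13.1% of cases and lower in 9.58%, 8.95%, and 9.04%. Shares by length differed more on the lower side than on the higher side. Of lincRNAs of 114 to 639 nt, 38 of 259 were higher (14.7%) and 19 lower (7.34%), and of those of 1434 to 14680 nt, 41 of 262 were higher (15.6%) and 43 lower (16.4%). Other transcripts in the same expression bins were called lower in 13.6% and 13.9% of cases, or in 9.29% and 9.4% under the heart condition. At one FPKM a longer transcript carries more fragments, and the part of length in these counts was not tested.

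The fetal list of the study, lincRNAs that differ between embryonic and adult heart, was also chosen on the adult heart samples of this contrast. Of 35 that were higher in adult heart than in embryonic heart, 16 were higher (45.7%) and 2 lower (5.71%) in adult heart than in adult muscle, against 12.2% and 14.9% of other transcripts of the same expression. Of 15 tested that were higher in embryonic heart, 0 were higher and 5 lower, against 0 and 7 at an unadjusted p under 0.05, and 12.2% of other transcripts of the same expression were higher and 14.2% lower. TCONS_00009015 (lnc_rps25_1), which averaged 184 FPKM in embryonic heart, had 24.3, 25.4, and 33.8 FPKM in adult heart and 49.0, 54.5, and 48.5 FPKM in adult muscle. Its difference passed the adjusted p (0.00339), but muscle exceeded heart only 1.82-fold. Of 80 tested lincRNAs with an orthologous region in another genome, 8 were higher and 8 lower, or 10% each. Of other transcripts of the same expression, 11.2% were higher and 13.5% lower, or 13.2% and 8.24% under the heart condition. Of the 8 lower lincRNAs, TCONS_00071932, an Ensembl lincRNA on chromosome 3 (15684858 to 15688217), had 0.0660, 0.159, and 0.174 FPKM in adult heart and 0.853, 1.14, and 0.872 FPKM in adult muscle (log2 fold change -2.20 ± 0.43 SE, adjusted p = 0.00620).

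**Figure D4:**
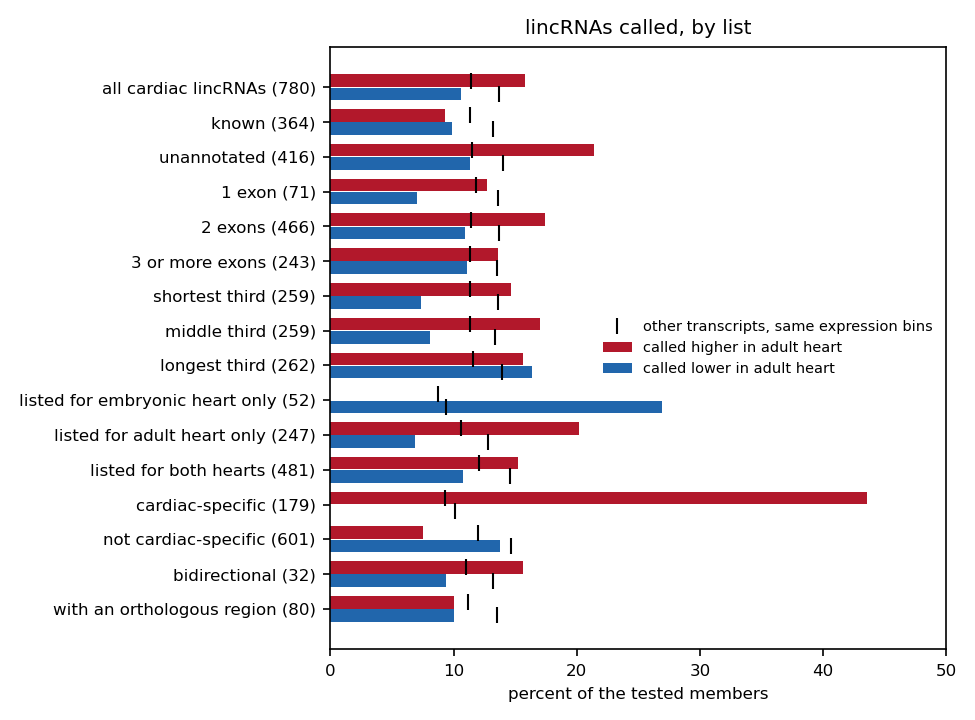
Percent of the tested members of each list called higher (red) or lower (blue) in adult heart than in adult muscle, with the number tested in parentheses. Black ticks give the percent of other transcripts called in the same direction in the same expression bins. The ticks do not apply the heart condition that the lincRNAs met. For all cardiac lincRNAs, that condition moves the background to 13.1% on the higher side and 9.04% on the lower side. Of the lists drawn, the unannotated (21.4%), adult heart only (20.2%), and cardiac-specific (43.6%) lists exceed their tick most on the higher side, and the list for embryonic heart only (26.9%) on the lower side. The adult heart only, embryonic heart only, and cardiac-specific lists were chosen on these samples, so their direction is no independent result. The unannotated lincRNAs were assembled from these samples and listed for expression in heart, so their share is no independent result either.

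Some of the most abundant lincRNAs did not separate the tissues. TCONS_00023920, on chromosome 14 (48566236 to 48573747), had 305, 604, and 340 FPKM in adult heart and 332, 279, and 351 FPKM in adult muscle (log2 fold change 0.32 ± 0.26 SE, adjusted p = 0.415). TCONS_00017202, on chromosome 12 (50611939 to 50612318), had 214, 157, and 152 FPKM in adult heart and 228, 215, and 267 FPKM in adult muscle (adjusted p = 0.273). TCONS_00028652, on chromosome 16 (16405421 to 16405989), had 124, 127, and 85.9 FPKM in adult heart and 99.9, 124, and 157 FPKM in adult muscle (adjusted p = 0.628). The first and the third overlapped between the tissues, and the second lay lower in every heart sample without passing the test.

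At the other end, the lincRNAs just above the expression condition were TCONS_00014804, with 0, 0.167, and 0.139 FPKM in adult heart and 0, 0.220, and 0 FPKM in adult muscle, and TCONS_00071196, with a mean of 0.101 FPKM in adult heart. Just below it were TCONS_00077143 and TCONS_00045191, each with 0.263 FPKM in a single adult muscle sample and less than 0.1 FPKM in the other 5. TCONS_00045191 averaged 30.7 FPKM in embryonic heart. The 2 that were tested were not called (adjusted p = 0.836 and 0.623).

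Summed over all 813 lincRNAs, adult heart had 4848, 4390, and 3905 FPKM and adult muscle 3359, 3490, and 3683 FPKM. The means were 4381 ± 472 and 3511 ± 163 FPKM (SD, n = 3 each), and the samples did not overlap (exact permutation test, two-sided, p = 0.1, the smallest that 3 against 3 samples allow). The sum was carried by few lincRNAs. The 10 most abundant made up 55.3% of the summed FPKM in adult heart and 34.8% in adult muscle, and without them adult heart was lower, at 1960 ± 120 FPKM against 2288 ± 33.3 FPKM in adult muscle (SD, n = 3 each). The 4 of them that were called higher, TCONS_00040395, TCONS_00048108, TCONS_00079130, and TCONS_00000540, held 34.2% of the sum in adult heart, against 2.99% in adult muscle. All 123 higher lincRNAs together held 46.2% of the sum in adult heart, against 5.80% in adult muscle. The 83 lower lincRNAs held 5.80% in adult heart and 29.9% in adult muscle.

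**Figure D5:**
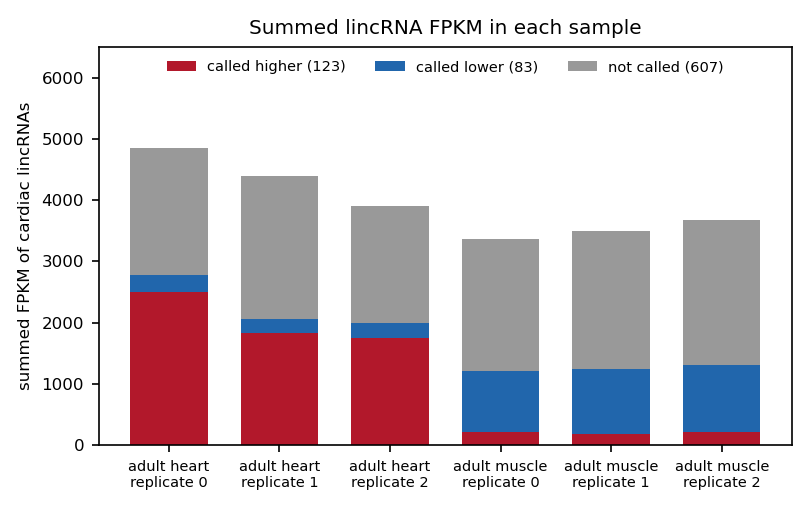
Summed FPKM of the 813 cardiac lincRNAs in each adult sample, divided into the 123 called higher in adult heart, the 83 called lower, and the 607 not called or not tested. The 3 adult heart samples (left) reach 3905 to 4848 FPKM and the 3 adult muscle samples (right) 3359 to 3683 FPKM.

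Among the other transcripts, the largest rises were those of TCONS_00024298 and TCONS_00094583, listed at 0 in every muscle sample and with means of 148506 and 104084 FPKM in adult heart. The largest falls were those of TCONS_00003123 and TCONS_00051767, listed at 0 in every heart sample and with means of 365432 and 268241 FPKM in adult muscle. TCONS_00024298 and TCONS_00094583 were both listed at 217264 FPKM in adult heart replicate 1. Their log2 fold changes had an SE of 4.35 and 4.12. Such values could not be checked against read counts and are not read as abundances. No lincRNA was listed near them.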

How the data were processed

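RNA from adult heart, adult muscle, and embryonic heart, 3 samples each, was sequenced with paired reads of 50 bp. Per the labels, the authors aligned reads to Zv9 with TopHat2 2.0.12, assembled transcripts with Cufflinks 2.2.1, and deposited FPKM values from Cuffnorm for each transcript and sample. The scaling option of Cuffnorm is not given in the sources used here, and the values hold no read counts. LincRNA lists, coordinates (Zv9), and primers came from the study's supplementary tables, for their entries only. The members and lists were chosen with earlier results of these data known.

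The test, by limma 3.58.1 (R 4.3.3), took transcripts with a mean above 0.1 FPKM in either adult tissue, on log2(FPKM + 0.1), with all 9 samples in 1 fit, an intensity trend, a two-sided contrast of adult heart minus adult muscle, and Benjamini-Hochberg adjustment over 63529 transcripts. A call needed an adjusted p under 0.05 and means that differed more than 2-fold, which a mean of 0 in the lower tissue passed. On simulated data, 80 of 200 transcripts changed 4-fold were recovered, with 7 false calls among 63529. The changed transcripts were drawn from the more highly expressed ones, and the ratio of means was not applied. Far fewer were changed than were called in the data. The recovery therefore does not carry over to the data or to weakly expressed lincRNAs. Expression bins were cut at equal numbers of lincRNAs. Counts and shares of lists carry no test. Other calculations used Python 3.11.15 with pandas 2.3.3 and scipy 1.17.1.

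LincRNAs are named by rule. The rule took, in each direction, the 6 called lincRNAs with the largest changes and no overlap and the 5 with the highest levels. It also took called bidirectional lincRNAs, entries with a gene symbol of contraction or development, a set of entries that the study's text names, those nearest the expression condition, and the 3 most abundant without a call. Of the other transcripts it took the 2 largest changes in each direction. An entry that this rule took is not reported here. Others are named as members of a locus, a pair, or a list. The alternatives were pseudocounts of 1 and 0.01, other filters, thresholds, scalings, and bins, fits without the trend or embryonic heart, a replicate block, and leaving out each sample.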

Additional observations from a re-analysis of the deposited data

How the results depend on the processing

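Of the 36 named lincRNAs that were called, none changed direction under any of the 19 alternatives applied to them. Over all 49 named lincRNAs tested, calls were lost in 40 of the alternative values and gained in 4. The other 873 stayed called or uncalled as before, and some uncalled lincRNAs with changes near 0 switched sign. Losses numbered 7 at an adjusted p below 0.01, 7 at a ratio above 4, 2 with a pseudocount of 0.01, 2 with no filter, 1 with a pseudocount of 1, 1 with the replicate block (TCONS_00098084, adjusted p = 0.0578), and 2 to 5 without 1 sample in turn. Some counts moved by over 1.5 times. At an adjusted p below 0.01, 3968 transcripts were higher and 5092 lower in adult heart, and 71 lincRNAs were higher and 52 lower. With a mean above 1 FPKM in either adult tissue, 70 lincRNAs were higher and 80 lower, so the lower side was then the larger. Without 1 sample in turn, 5473 to 6797 transcripts were higher and 6358 to 7354 lower, and 94 to 121 lincRNAs were higher and 63 to 72 lower. The difference in percentage points between lincRNAs and other transcripts of the same expression was then 3.42 to 5.01 on the higher side and -3.18 to -2.75 on the lower side. On the lower side it was -1.43 with a pseudocount of 1 and -1.91 with the replicate block over the 6 adult samples, and on the higher side 2.39 at an adjusted p below 0.01 and 2.67 among transcripts that met the heart condition. The difference of the lower side was 1.60 among transcripts that met the heart condition. With a mean above 0.1 FPKM in both adult tissues, the differences were -0.30 on the higher side and 2.10 on the lower side. The heart condition removes other transcripts by construction, and the mean in both tissues also removes lincRNAs, 76 of the 123 higher ones among them. The difference of summed FPKM was -328 without the 10 highest lincRNAs, and 637 to 1109 without 1 sample in turn.

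With the replicate block over the 6 adult samples, 5479 transcripts were higher and 6768 lower, and 104 lincRNAs were higher and 80 lower. With the replicate block over 9 samples, chosen after seeing the data, these were 6147, 7247, 113, and 77. The numbers were not taken to pair the samples, because no source used here says that they do. The deviations of same-numbered samples correlated at r = 0.073, -0.016, and -0.007, and those of unlike-numbered samples at -0.062 to 0.069. Such values cannot decide whether samples came from the same fish. Rescaling by median ratios moved the median log2 fold change of all transcripts to 0.06 and gave 124 higher and 76 lower lincRNAs.

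Of the called lincRNAs, 39 of 123 higher and 29 of 83 lower lost their call without at least 1 sample, and those fits have fewer samples. With 3 samples a tissue and no read counts, differences in weakly expressed lincRNAs are limited by the spread between samples.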
